A study of Rattus norvegicus with 7 samples.

Results

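The suppressors of cytokine signaling and the receptor, kinase and transcription factor transcripts on which they act were followed in ROE2 cells, a line of rat oral epithelium, under sodium fluoride (NaF). The genes were Socs1, Socs2, Socs3, Cish, Stat3, Stat5a, Jak1, Jak2 and Il6st, and every probe set whose symbol in the probe annotation was one of these 9 was taken, which gave 16 of the 31099 probe sets of the array. Of these, 10 probe sets of 6 genes reached a log2 signal of 7 on at least 1 array and were tested. The 6 that stayed below it on all 7 arrays were the 2 of Socs1, those of Socs2 and Socs3, 1 of 2 of Cish and 1 of 4 of Il6st.

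The cells were exposed to 2 mM NaF for 3, 6 or 12 h (1 array at each time), or to the vehicle, sterilized water, for 0, 3, 6 or 12 h (4 arrays). All came from the ROE2 line, established from the tongue of an 18-day-old fetus of a Wistar rat that carries a temperature-sensitive SV40 large T-antigen transgene, and all were held at 37 °C for 24 h, in medium containing 2% FBS, before exposure, so NaF and vehicle cells share the transgene and the shift in temperature. Each array received pooled RNA of 3 experiments on the Affymetrix Rat Genome 230 2.0 array, and the deposited values are log2 signals per probe set. Since each condition was 1 array, the p-values below rest on the spread between the 4 vehicle pools, taken over different times. The spread of a single NaF array was taken to equal theirs. The exception is the comparison of the 3 NaF with the 4 vehicle arrays as groups, which uses the spread in both.

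Cytokines of the interleukin-6 group bind a receptor that signals through gp130, the protein of Il6st. The kinases Jak1 and Jak2, bound to receptors of this kind, then phosphorylate STAT proteins, which enter the nucleus and switch on target genes. Among these targets are the SOCS genes and Cish, whose proteins bind the receptor or the kinase and shut the signal off, so that their transcripts are known as early readouts of an active cytokine receptor. Epithelia of the mouth both release such cytokines and respond to them. The question put to the arrays was whether the feedback transcripts follow when the cytokine transcripts rise.

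The known route of this feedback passes through a short site that STAT dimers bind, TTCNNNGAA, which reads the same on both strands. The 250 bases before the RefSeq start of transcription (build GRCr8) were searched for it on both strands in the 7 of the 9 genes with a promoter sequence, which leaves Socs2 and Jak1 out. Cish held 4 such motifs and Socs1 held 1, whereas Socs3, Stat3, Stat5a, Jak2 and Il6st held 0 in this window. Of 33469 rat promoters of the same length, 2566 (7.67%) held at least 1 motif and 2 (0.00598%) held at least 4. The Cish and Socs1 promoters are shown because they are the feedback genes with the motif, and capitals mark each match. They lie on the forward strand at chr8:116850719-116850968 (Cish) and chr10:5389324-5389573 (Socs1).
Cish: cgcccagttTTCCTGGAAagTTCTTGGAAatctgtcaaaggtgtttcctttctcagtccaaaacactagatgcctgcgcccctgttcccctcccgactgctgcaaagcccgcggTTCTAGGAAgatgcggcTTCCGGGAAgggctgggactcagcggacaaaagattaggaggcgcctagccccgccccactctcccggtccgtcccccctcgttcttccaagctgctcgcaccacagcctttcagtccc
Socs1: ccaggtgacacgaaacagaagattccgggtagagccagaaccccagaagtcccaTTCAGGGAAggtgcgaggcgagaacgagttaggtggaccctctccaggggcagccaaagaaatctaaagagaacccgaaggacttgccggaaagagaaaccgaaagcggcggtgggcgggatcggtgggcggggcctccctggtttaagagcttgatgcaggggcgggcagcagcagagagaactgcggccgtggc
Counted from the start of transcription to the first base of the motif, those of Cish lay 241, 230, 136 and 119 bases upstream and that of Socs1 196 bases upstream. A match of letters says nothing of whether a STAT protein was bound in these cells.

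The arrays were closely alike in scale, with medians between 5.32 and 5.35 and correlations between pairs of vehicle arrays between 0.9961 and 0.9987. Of 11 epithelial marker genes 9 reached the signal limit, and their list averaged 9.59 to 9.87 log2 units on NaF arrays and 9.86 to 9.88 on vehicle arrays. At 12 h of NaF, 1 of these 9 was higher (Cldn1, 0.42) and 5 were lower (Dsg2, -1.06, Tp63, -0.80, Krt8, -0.51, Dsp, -0.42, and Krt5, -0.38), and their part in the 12 h results was not tested. None of 6 leukocyte, 6 fibroblast and 3 endothelial markers reached the limit on any array. The 3' minus 5' gap of the beta-actin control probe sets, which can reflect RNA integrity, was 1.77 to 2.39 log2 units on NaF arrays. On vehicle arrays it was 1.53 to 2.83, widest on the vehicle array of 3 h. The authors accepted only RNA samples above a set RNA integrity number, and the source of the wide gap was not tested. In RNA from whole cultures, a change in the mix of cells and a change in transcript per cell cannot be told apart.

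Calls among the 10 tested probe sets were counted beside those of all tested probe sets. At 3 h, 0 were called higher and 1 lower (limma, adjusted p under 0.05), where 2.87% of all 11769 tested probe sets were called higher and 5.9% lower. The 6 h test called 2 higher and 0 lower, against 16.9% and 21.5% of all tested probe sets. The 12 h test called 3 higher and 1 lower, against 29.7% and 30.8%. The 4 called at 12 h are 40% of the 10. With 10 probe sets of 6 genes, this share is too coarse to be read as a difference from all probe sets. No member passed 2.5-fold against its time-matched vehicle array, with log2 differences from -0.65 to 0.97. Of all tested probe sets, 0.637%, 2.55% and 4.85% did so at 3, 6 and 12 h. At such small shares, 0 of 16 members says little. When the 3 NaF arrays were set against the 4 vehicle arrays as groups, 0 of 10 were called by limma. In that comparison 1 had an unadjusted p under 0.05, and 8.64% of all tested probe sets were called in either direction. Its spread holds the change over time within NaF, so a time course such as that of Jak2 counts as noise. The SD of Jak2 was 0.719 over NaF arrays and 0.0564 over vehicle arrays. Of the 16 members, 1 probe set, of Il6st, had NaF arrays that did not overlap the vehicle arrays; of all tested probe sets 29.7% did not overlap.

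**Figure D1:**
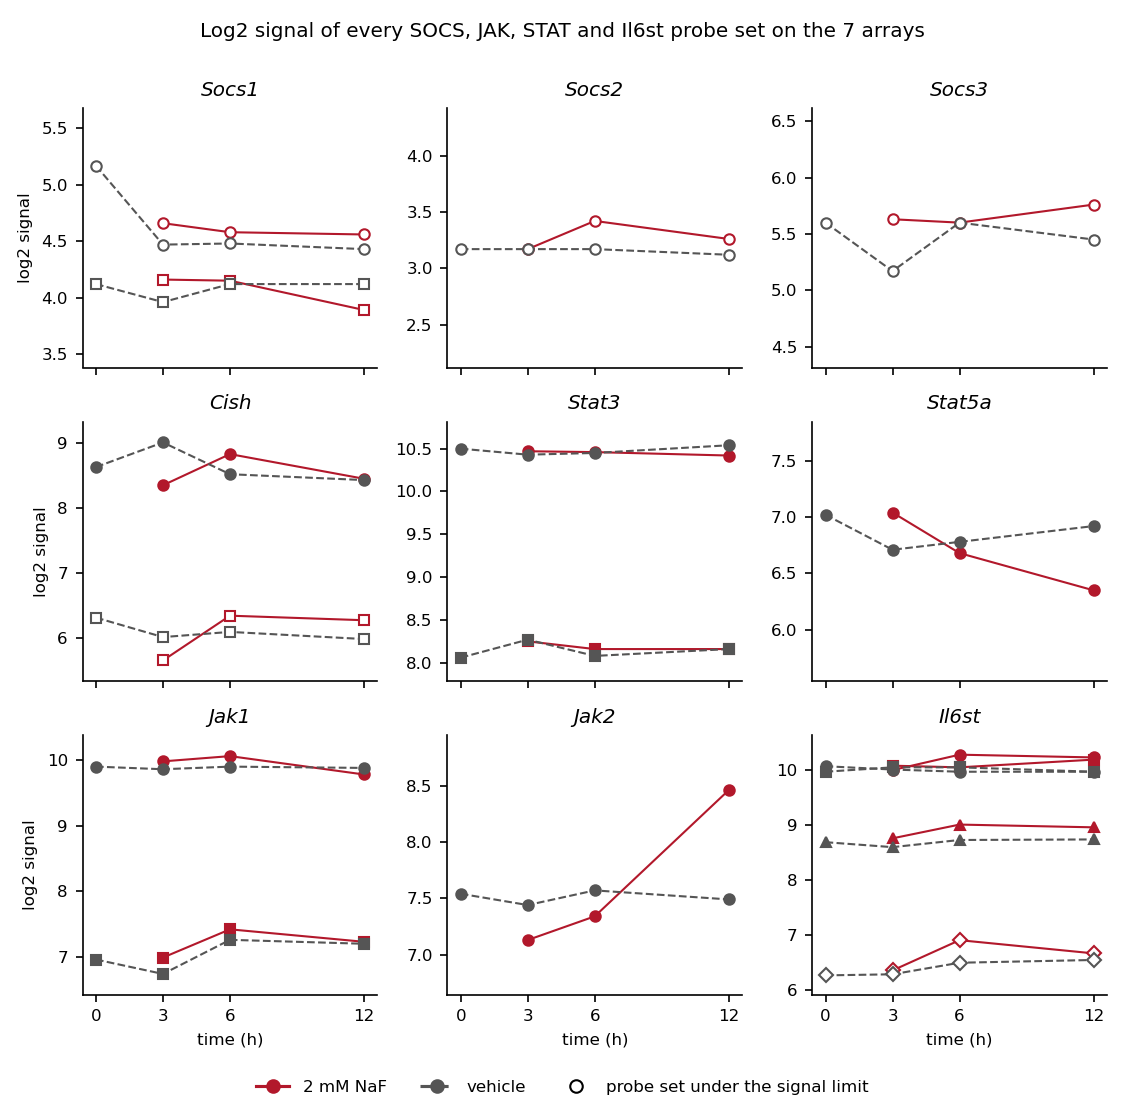
Log2 signal (vertical axis) of all 16 probe sets against time in hours for 2 mM NaF (red, solid lines) and vehicle (gray, dashed lines), 1 array at each point, with 1 panel for each gene and 1 symbol shape for each probe set. Open symbols are probe sets below a log2 signal of 7 on every array; Jak2 at 12 h of NaF, at 8.46, stands farthest from its vehicle arrays, and the SOCS panels show NaF and vehicle values side by side.

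Of the gp130 ligands, Il6, Clcf1 and Lif stood above vehicle with NaF, and 4 others did not pass the test. Il6, the ligand after which the group is named (1369191_at), had log2 signals of 5.51, 7.04 and 9.61 at 3, 6 and 12 h of NaF, against 4.11, 4.30, 4.15 and 3.75 at 0, 3, 6 and 12 h of vehicle. The NaF values climbed at each time and all lay above the vehicle values, with fitted changes of 1.44, 2.96 and 5.53 (SE 0.20, adjusted p = 0.015, 6e-04 and 0.00017). Clcf1, another ligand that signals through gp130 (1385827_at), had 6.65, 5.97 and 7.01 with NaF, against 5.22, 5.58, 4.89 and 4.65 with vehicle, and its changes of 1.57, 0.88 and 1.92 (SE 0.33) passed the test at 3 h and 12 h (adjusted p = 0.047 and 0.0045) but not at 6 h (adjusted p = 0.088). At 3 h the call of Il6 was lost without vehicle at 0 h or 6 h (adjusted p = 0.06 and 0.07), and that of Clcf1 without vehicle at 0 h, 6 h or 12 h (adjusted p = 0.11, 0.15 and 0.091). Clcf1 was called at 6 h without vehicle at 3 h (adjusted p = 0.041). Both genes were tested only because their NaF arrays reached the signal limit, so a difference from vehicle was built into their selection. Their vehicle values lie far below that limit, and the size of their changes is uncertain for this reason.

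Lif, leukemia inhibitory factor (1368804_at), stayed under the limit with 4.95, 5.86 and 5.65 on NaF arrays and 4.15, 4.42, 4.06 and 3.69 on vehicle arrays. In a fit of all 31099 probe sets, which called 0.717%, 11.2% and 24.7% of them at 3, 6 and 12 h, its changes were 0.87, 1.78 and 1.57 (adjusted p = 0.27, 0.024 and 0.017). The other gp130 ligands on the array, Il11, Osm, Ctf1 and Cntf, were below the limit and differed from vehicle by -0.11 to 0.39 at 12 h, with none past the test in that fit. Among the 7839 genes tested, the 12 h test called 2326 higher and 2511 lower (61.7% in all), with a median change of -0.01.

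Ligands of other JAK-coupled and growth factor receptors were given beside them. Of 15 on the array, 6 were tested, of which 4 were higher and 1, the growth factor Csf1, was lower at 12 h. Of all 7839 tested genes, 2326 were higher and 2511 lower at that time, and 6 genes are too few to be read as a difference. Il23a, a subunit of interleukin-23, had 6.88, 8.56 and 11.42 with NaF and 7.16, 7.10, 7.10 and 6.70 with vehicle, so that the 3 h array was within the vehicle range and the later arrays were far above it. Tslp, an epithelial cytokine that signals through Jak1, Jak2 and Stat5 proteins, had 6.27, 8.17 and 9.35 with NaF and 4.81, 5.07, 5.27 and 5.30 with vehicle; it too was tested only through its NaF arrays. Csf3, the granulocyte colony-stimulating factor, rose by 1.40 (SE 0.33, adjusted p = 0.014) and Il24 rose by 1.52 (SE 0.28, adjusted p = 0.0057) at 12 h. Csf1 fell by 1.60 at 12 h at its brightest probe set (SE 0.24, adjusted p = 0.0028), but its other tested probe sets differed by -0.27 and -0.51 (adjusted p = 0.23 and 0.063), and the mean of the 3 gave -0.79. Csf2 differed by 0.47 at 12 h (SE 0.55, adjusted p = 0.49). Il15, a ligand below the limit, had 5.47, 5.04 and 4.27 with NaF and 5.37, 5.26, 5.38 and 5.40 with vehicle, a change of -1.08 at 12 h in the fit of all probe sets (adjusted p = 0.0027). Il12a, far below the limit, differed by 0.23 at 12 h in that fit (adjusted p = 0.045).

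The receptor chain shared by the interleukin-6 group changed little. Il6st at its brightest probe set (1370957_at) had log2 signals of 9.99, 10.27 and 10.22 with NaF, against 10.06, 10.00, 9.96 and 9.96 with vehicle. The 3 h array lay among the vehicle arrays and the later arrays lay above them, with changes of -0.01, 0.27 and 0.22 (SE 0.07, adjusted p = 0.97, 0.025 and 0.033). The probe set 1373140_at, with 8.75, 9.0 and 8.95 on NaF arrays and 8.68, 8.59, 8.72 and 8.73 on vehicle arrays, gave 0.07, 0.32 and 0.27 (SE 0.08, adjusted p = 0.65, 0.022 and 0.026). The third tested probe set, 1371926_at, had 10.07, 10.04 and 10.18 with NaF and 9.96, 10.04, 10.04 and 9.96 with vehicle, and none of its changes of 0.07, 0.04 and 0.18 passed the test (adjusted p = 0.61, 0.69 and 0.065). The fourth, 1383489_at, was under the signal limit with 6.35, 6.90 and 6.66 on NaF arrays and 6.26, 6.28, 6.49 and 6.54 on vehicle arrays. All 4 probe sets of Il6st were thus above their vehicle mean at 6 h and 12 h, by 0.04 to 0.50 log2 units, and the probe sets disagreed on the call. Leaving out vehicle at 6 h, or vehicle at 12 h, cost the brightest probe set its call at 6 h (adjusted p = 0.075 and 0.061) and at 12 h (adjusted p = 0.087 and 0.070). Over all alternatives its adjusted p ran from 0.012 to 0.076 at 6 h and from 0.016 to 0.087 at 12 h.

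Of 5 listed ligand-specific chains that pair with gp130, 4 had a probe set, and these were below the limit on every array. Osmr, another such chain, had no probe set named for it alone and was not measured here. Il6r, which binds interleukin-6, had 5.99, 6.12 and 6.24 with NaF and 5.82, 6.48, 5.65 and 5.98 with vehicle, and the groups overlapped. Lifr (1369228_at), the receptor of leukemia inhibitory factor, had 4.29, 4.24 and 4.18 with NaF and 4.24, 4.30, 4.22 and 4.06 with vehicle. Il11ra1 and Cntfr likewise stayed below the limit. Of 6 tested receptors of other JAK-coupled and growth factor ligands, 0 were higher and 5 lower at 12 h, with a median change of -0.65. Of all 7839 tested genes, 2511 were lower at that time, and 6 genes are too few to be read as a difference from that share. The 5 lower receptors were Egfr, the epidermal growth factor receptor (-1.02), Ifngr2 (-0.77) and Ifngr1 (-0.74), the interferon-gamma receptor chains, Il10rb (-0.57) and Il4r (-0.48). Ifnar2 was at 0.00 (adjusted p = 0.98). The other tested probe set of Egfr, 1370830_at, differed by only -0.24 at 12 h (adjusted p = 0.023), so the size of its fall is uncertain. Crlf2, the receptor chain of Tslp, stayed under the limit with 6.57, 6.64 and 6.93 on NaF arrays, against 6.50, 6.35, 6.52 and 6.36 on vehicle arrays. Its change at 12 h in the fit of all probe sets was 0.49 (adjusted p = 0.025). Ifnar1 was under the limit at all its probe sets, which disagreed at 6 h. In that fit it differed by -0.87 at 1379298_at (adjusted p = 0.036) and by 0.02 at 1398055_at (adjusted p = 0.96).

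Of the kinases, Jak2 gave the largest change of all members. Its 1 probe set (1368856_at) had log2 signals of 7.13, 7.34 and 8.46 at 3, 6 and 12 h of NaF, against 7.54, 7.44, 7.57 and 7.49 at 0, 3, 6 and 12 h of vehicle. The first NaF arrays lay below every vehicle array and the last lay above them all. The vehicle arrays averaged 7.51 ± 0.0564 (SD, n = 4). At 3 h Jak2 fell by 0.38 (adjusted p = 0.035), at 6 h it differed by -0.17 (adjusted p = 0.11), and at 12 h it rose by 0.95 (95% confidence interval 0.77 to 1.13, adjusted p = 0.00035). Against the time-matched vehicle array the 12 h difference was 0.97, or 1.96-fold. The difference between 12 h and 3 h of NaF was 1.34 (adjusted p = 0.00081), where 25% of all tested probe sets were called higher and 23.5% lower in that comparison. The call at 12 h held with every vehicle array left out, whereas the 3 h call did not survive leaving out vehicle at 0 h, 6 h or 12 h (adjusted p = 0.071, 0.12 and 0.099). Over all alternatives the adjusted p of the 3 h change ran from 0.024 to 0.12.

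Jak1, the kinase on which gp130 mostly relies, did not pass the test against vehicle at any time, although it did at 6 h with a variance trend (adjusted p = 0.038). Its brighter probe set (1383478_at) had 9.98, 10.06 and 9.78 with NaF and 9.90, 9.86, 9.90 and 9.88 with vehicle, and its changes were 0.10, 0.18 and -0.11 (SE 0.06, adjusted p = 0.36, 0.06 and 0.16). The dimmer one (1384060_at) had 6.99, 7.42 and 7.23 with NaF and 6.96, 6.74, 7.26 and 7.20 with vehicle, where the groups overlapped. Tyk2, the remaining kinase of the family that was tested, fell by 0.28 at 12 h (SE 0.07, adjusted p = 0.015).

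Stat3, the main STAT of the interleukin-6 group, stayed close to vehicle. Its brighter probe set (1370224_at) had log2 signals of 10.47, 10.46 and 10.42 with NaF, against 10.50, 10.43, 10.45 and 10.54 with vehicle. The change at 12 h was -0.06 (95% confidence interval -0.23 to 0.11, adjusted p = 0.48). The other probe set (1371781_at) had 8.25, 8.16 and 8.16 with NaF and 8.06, 8.27, 8.08 and 8.16 with vehicle, again with overlap. These are transcript levels, and phosphorylation of the protein, by which Stat3 is switched on, was not measured.

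Stat5a, which acts below Tslp, growth hormone and other receptors, was the member that fell at 12 h. Its probe set (1368231_at) had 7.04, 6.68 and 6.35 with NaF, against 7.02, 6.71, 6.78 and 6.92 with vehicle. The 3 h array was at the top of all arrays and the 12 h array was the lowest of all, with changes of 0.18, -0.18 and -0.50 (SE 0.12, adjusted p = 0.44, 0.30 and 0.016). The interval at 12 h ran from -0.81 to -0.19, and the difference between 12 h and 3 h of NaF was -0.69 (adjusted p = 0.016). This gene sits at the signal limit, and its call at 12 h was lost when all probe sets were fitted (adjusted p = 0.054), with a range of 0.011 to 0.09 over all alternatives. Stat5b, its close relative, fell by 0.63 at 12 h (SE 0.07, adjusted p = 0.00088), with 6.91, 6.91 and 6.32 on NaF arrays and 6.91, 7.01, 6.92 and 6.95 on vehicle arrays. Stat2, which acts in interferon signaling, fell by 0.39 at 12 h (adjusted p = 0.01). All 3 tested genes of the list of other kinases and STATs were thus lower at 12 h, where 2511 of 7839 tested genes were lower. Stat5b was tested only through the vehicle array of 3 h, at 7.01.

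Of these feedback genes only Cish was tested, at its brighter probe set, and it passed at no time. The other probe sets stayed under the signal limit, and their values come from the fit of all probe sets. Over the 6 probe sets of Socs1, Socs2, Socs3 and Cish, the fitted changes lay between -0.44 and 0.30. The smallest adjusted p, 0.066, was that of Socs2 in the fit of all probe sets. No difference from the time-matched vehicle array exceeded 0.65 log2 units.

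Socs3, the suppressor that binds gp130 and that interleukin-6 is known to induce, had log2 signals of 5.63, 5.60 and 5.76 with NaF, against 5.60, 5.17, 5.60 and 5.45 with vehicle (1369584_at). The NaF arrays lay at or just above the top of the vehicle arrays, which averaged 5.46 ± 0.202 (SD, n = 4), and the lowest vehicle value was that of the 3 h array with the wide actin gap; its part in the difference at 3 h was not tested. The fitted changes were 0.17, 0.14 and 0.30 (SE 0.19), with intervals of -0.32 to 0.66, -0.34 to 0.63 and -0.18 to 0.79. Socs3 was under the signal limit, and these values come from the fit of all probe sets. At such signals a change could go unseen, so the interval at 12 h does not bound the change of the transcript.

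Cish, a suppressor that binds receptors of the Stat5 pathway and the gene with 4 motifs in its promoter, was the only one of these 4 feedback genes to reach the signal limit. Its tested probe set (1378586_at) had 8.35, 8.83 and 8.45 with NaF, against 8.63, 9.01, 8.52 and 8.43 with vehicle. The groups overlapped, and the changes of -0.29, 0.19 and -0.19 (SE 0.21, adjusted p = 0.48, 0.54 and 0.47) had intervals of -0.82 to 0.24, -0.35 to 0.72 and -0.73 to 0.34. The largest difference from a time-matched vehicle array, -0.65 at 3 h, used the array with the highest vehicle value, 9.01, which is also the array with the widest actin gap; its part was not tested. The second probe set (1388233_at), under the limit, had 5.65, 6.34 and 6.27 with NaF and 6.31, 6.01, 6.09 and 5.98 with vehicle. Both probe sets had their lowest NaF value at 3 h and their highest at 6 h.

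Socs1, a suppressor that blocks the kinases themselves, and Socs2, best known as a brake on growth hormone signaling, were far below the signal limit. Socs1 at 1375568_at had 4.66, 4.58 and 4.56 with NaF and 5.17, 4.47, 4.48 and 4.43 with vehicle, and at 1371252_at 4.16, 4.15 and 3.89 with NaF and 4.12, 3.96, 4.12 and 4.12 with vehicle. Socs2 (1369577_at) had 3.17, 3.42 and 3.26 with NaF and 3.17, 3.17, 3.17 and 3.12 with vehicle, where the 6 h array was the highest of the 7 (change 0.26, SE 0.06, adjusted p = 0.066). At such signals a change could go unseen, and these values do not show that the genes were unaltered.

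**Figure D2:**
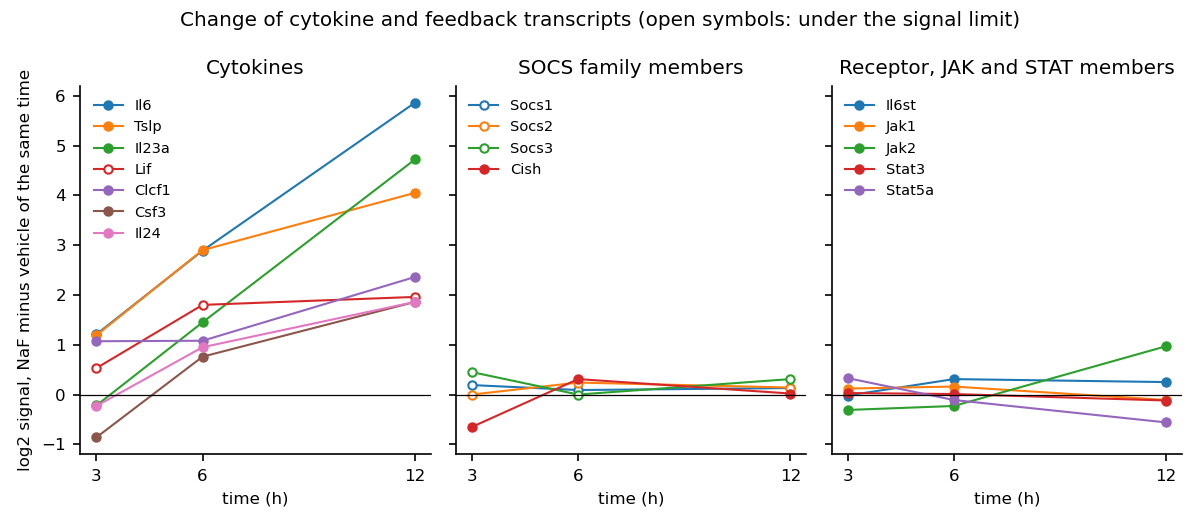
Log2 signal of NaF minus that of the time-matched vehicle array (vertical axis) against time in hours, for 7 cytokines, the 4 SOCS family genes and the 5 receptor, JAK and STAT genes, each at its brightest probe set, 1 pair of arrays at each point and open symbols for genes under the signal limit. Il6, whose vehicle values are under the limit, ends at 5.86 and Il23a at 4.72, while on the same axis the SOCS family stays within 0.65 of the line at 0 and Jak2 ends at 0.97.

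Other members of the SOCS family, some of which act below growth factor receptors, reached the signal limit. Socs5 had 10.35, 10.64 and 10.95 with NaF, against 10.22, 10.48, 10.36 and 10.31 with vehicle, and rose by 0.60 at 12 h (SE 0.11, adjusted p = 0.0046). Socs7 had 8.52, 8.57 and 8.89 with NaF and 8.32, 8.50, 8.47 and 8.35 with vehicle, and rose by 0.48 (SE 0.09, adjusted p = 0.0064). Socs6 differed by 0.21 (adjusted p = 0.15). Of the 3 genes of this list, 2 were thus higher and 0 lower at 12 h, where 2326 of all 7839 tested genes were higher and 2511 lower. Of 5 tested genes of the ubiquitin ligase that the SOCS box recruits, 0 were higher and 1, Eloc, was lower at 12 h (-0.26, adjusted p = 0.017, and 0.05 without vehicle at 6 h).

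Further brakes of the pathway moved in both directions. Of 10 tested genes, 4 were higher and 1 was lower at 12 h, with a median change of 0.13. Of all 7839 tested genes, 2326 were higher and 2511 lower at that time. Ptpn1, a phosphatase of Jak2 and Tyk2, had 8.17, 8.59 and 8.20 with NaF, against 7.42, 7.64, 7.54 and 7.63 with vehicle. All its NaF arrays were above all vehicle arrays, with changes of 0.61, 1.03 and 0.65 (SE 0.10, adjusted p = 0.024, 0.0015 and 0.003). The call at 3 h was lost without vehicle at 6 h or 12 h (adjusted p = 0.1 and 0.07). Ptpn2, a phosphatase of Jak1 and STAT proteins, had 9.94, 10.36 and 10.79 with NaF and 9.86, 9.93, 9.88 and 9.82 with vehicle, and rose by 0.91 at 12 h (SE 0.07, adjusted p = 0.00033). Sh2b3, an adaptor that restrains Jak2, rose by 0.67 at 6 h and 0.76 at 12 h (SE 0.09, adjusted p = 0.0037 and 0.0012). Pias3, an inhibitor of Stat3 bound to DNA, went the other way: it had 8.83, 8.15 and 8.14 with NaF, against 9.53, 9.69, 9.67 and 9.60 with vehicle, and its changes of -0.79, -1.47 and -1.48 (SE 0.08, adjusted p = 0.0069, 0.00052 and 0.00021) were already past the test at 3 h. Against the vehicle array of its time the 12 h array was 2.74-fold lower.

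**Figure D3:**
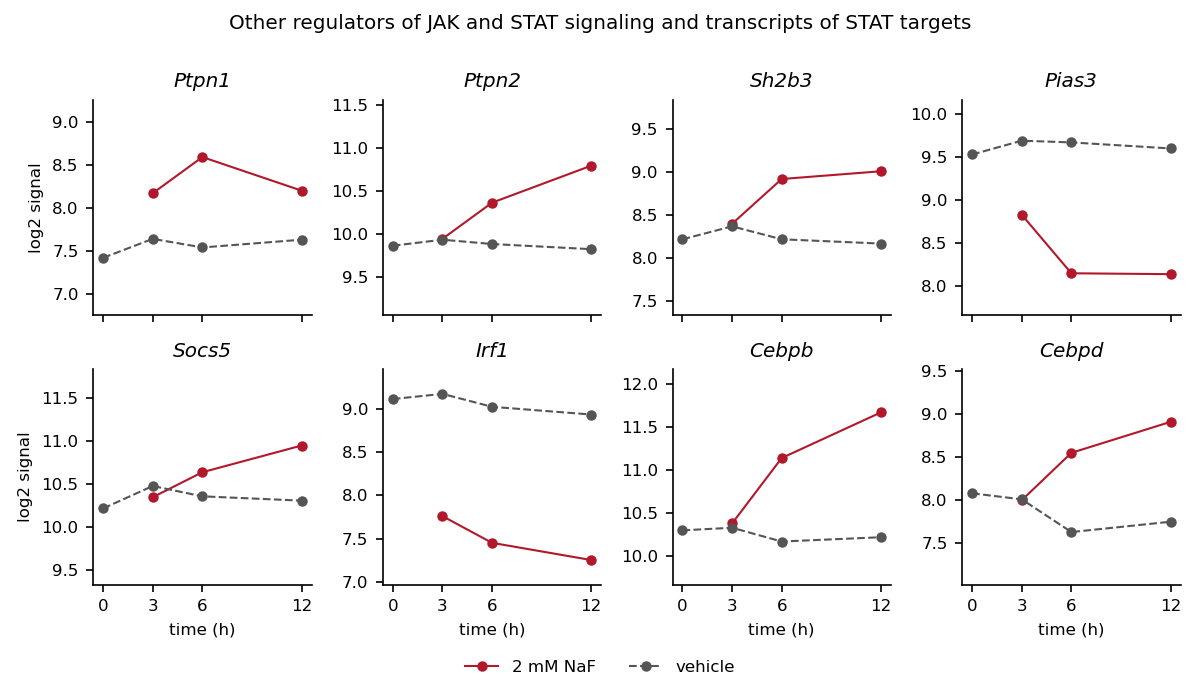
Log2 signal (vertical axis) against time in hours for 8 genes outside the member list, with 2 mM NaF (red, solid lines) and vehicle (gray, dashed lines), 1 array at each point and a vertical axis of its own in each panel. Ptpn1, Pias3 and Irf1 are apart from vehicle from 3 h on, whereas Ptpn2, Sh2b3, Socs5, Cebpb and Cebpd lie above every vehicle array at 6 h and 12 h.

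Genes that STAT proteins are known to switch on were counted as well, although other factors drive them too. Of 17 tested genes of the Stat3 list, the 3 h array had 4 higher and 2 lower, the 6 h array 9 higher and 3 lower, and the 12 h array 10 higher and 3 lower with a median change of 0.78. Of all tested genes 8.87% were called at 3 h (206 higher and 489 lower), 38.9% at 6 h (1306 higher and 1741 lower) and 61.7% at 12 h. At 3 h, the calls of Icam1 and Pim3 were lost without vehicle at 0 h, 6 h or 12 h (adjusted p = 0.064 to 0.14), that of Pim3 also without vehicle at 3 h (0.053) and that of Vegfa without vehicle at 12 h (0.067). Mcl1, called lower at 3 h (-0.45), lost its call without vehicle at 6 h or 12 h (adjusted p = 0.08 and 0.064). The other tested probe set of Mcl1 differed by -0.03 at 3 h (adjusted p = 0.83). Vegfa, the angiogenic growth factor, rose by 2.40 at 12 h (SE 0.16, adjusted p = 0.00026), and Cebpb and Cebpd, acute phase transcription factors, rose by 1.41 and 1.04 (adjusted p = 0.00022 and 0.0045). Pim3, a survival kinase, rose by 1.20 and Icam1, an adhesion molecule, by 0.98. Fos, an immediate early gene, had 10.33, 9.03 and 7.93 with NaF and 5.81, 6.58, 6.00 and 6.06 with vehicle, so that it was highest at 3 h. Il6 was above vehicle at 3 h and highest at 12 h, and a link between these genes was not tested. Fos was tested only through its NaF arrays, so its place among the higher genes was built into the selection. Myc fell by 1.89 at 3 h and rose by 0.89 at 12 h (SE 0.13, adjusted p = 0.0026 and 0.0028), and Ccnd1, cyclin D1, fell by 1.13 at 12 h.

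Of 7 tested genes of the Stat5 list, 3 were higher and 3 lower at 12 h, with a median change of -0.14. The 12 h test called 2326 of all 7839 tested genes higher and 2511 lower. Pim2, a kinase, rose by 1.13 (adjusted p = 0.0015) but was tested only through its NaF arrays, while Ccnd1 and Id1, an inhibitor of differentiation, fell by 1.13 and 0.83. Of 12 tested interferon target genes, 3 were higher and 7 lower at 12 h, with a median change of -0.40, beside the same share of all tested genes. Irf1, a transcription factor of the interferon response, had 7.76, 7.45 and 7.25 with NaF, against 9.12, 9.18, 9.03 and 8.94 with vehicle, with changes of -1.31, -1.62 and -1.82 (SE 0.10, adjusted p = 0.0035, 0.00057 and 0.00022). Gbp2, an interferon-induced GTPase, fell by 1.79 at 12 h (adjusted p = 0.00038), whereas Rsad2, an antiviral gene, rose by 2.64 (SE 0.34, adjusted p = 0.0015). The list thus held changes in opposite directions, with the 2 largest falls in Irf1 and Gbp2 and its largest rise in Rsad2.

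**Figure D4:**
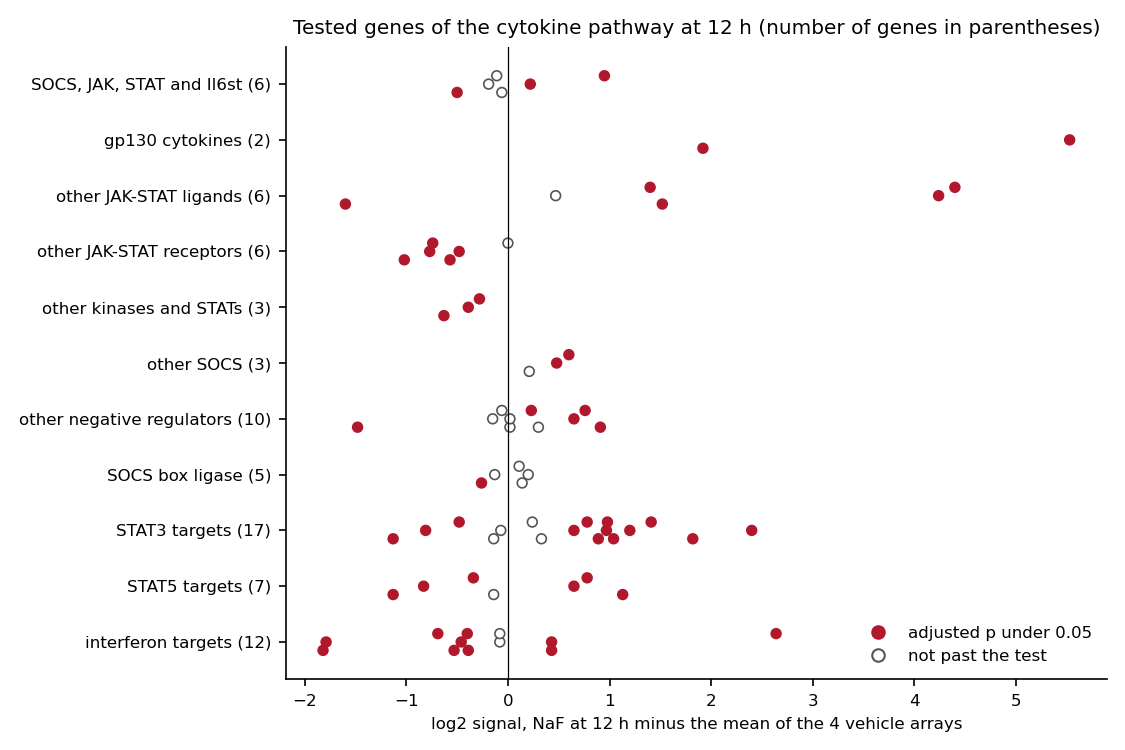
Fitted log2 change at 12 h of NaF against the mean of the 4 vehicle arrays (horizontal axis) for each tested gene, in 1 row for each list with its number of tested genes in parentheses. Filled points passed the limma test, as did 61.7% of all 7839 tested genes, and open points did not. The SOCS, JAK, STAT and Il6st row spans -0.50 (Stat5a) to 0.95 (Jak2). The gp130 cytokine row reaches 5.53 (Il6) and all 5 called points of the receptor row lie left of 0.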

How the data were processed

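Total RNA of ROE2 cells was labeled from 500 ng per array with a 3' expression kit, hybridized and scanned by the authors, who analyzed the intensities in GeneSpring GX. The table deposited by the authors held 1 log2 value per probe set and array, and was used without further scaling. Software version and normalization: not given in the sources used here. Symbols came from GEO's platform annotation of 2016. It gave a single symbol to 20832 of 31099 probe sets, several to 436 (not used for names) and no symbol to 9831. Oligonucleotide arrays of this kind compress differences near background, so changes of dim probe sets may be understated.

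Probe sets with a log2 signal of 7 or more on any array (11769) were tested in R 4.3.3 with limma 3.58.1 (lmFit and eBayes, Benjamini-Hochberg over all probe sets tested, adjusted p under 0.05). The fit had 1 mean for the 4 vehicle arrays and 1 for each NaF array, with 3 residual and 2.67 prior degrees of freedom. The median standard error of a change was 0.0864 and the median SD over the vehicle arrays 0.0803, and with 1 array per NaF condition the count of arrays sets the precision. Values of members under the limit came from the same fit on all probe sets. The array whose time label reads control was taken as vehicle at 0 h, after the study's methods. A gene in a list was taken at its brightest tested probe set. Members of a list were named where they passed both the test and 2.5-fold (at most 6), with up to 3 others of the largest change at 12 h. Every tested ligand and receptor was named singly. Not every ligand or receptor under the limit was named. No member reached a change of 1 against vehicle, so no genes of like pattern were named. The members, the lists and the tests were chosen with earlier results of these data known, and list counts are descriptions.

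The promoters came from RefSeq (build GRCr8), and 7 of 9 genes matched. The fits were tested on simulated data. Alternatives were other filters, scalings, a variance trend, averaged probe sets of a gene, other baselines and folds, and each array left out.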

Additional observations from a re-analysis of the deposited data

Results flagged for a closer look

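The Jak2 signal at 12 h of NaF exceeded that at 3 h by 1.34 log2 units (limma adjusted p = 0.00081). The Stat5a signal at 12 h differed from that at 3 h by -0.69 (adjusted p = 0.016). This test compares NaF arrays with each other and does not remove change over time in vehicle, so it is no test of a NaF effect by time. Against the time-matched vehicle array, Jak2 differed by -0.31 at 3 h and 0.97 at 12 h, and Stat5a by 0.33 and -0.56. The Stat5a difference between 12 h and 3 h of NaF did not pass with no filter (adjusted p = 0.058) or with quantile normalization (-0.62, adjusted p = 0.051). Its adjusted p ran from 0.011 to 0.058 over the alternatives. Each time was 1 array of pooled RNA.

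In 3 of 16 probe sets, 1 vehicle array stood apart from the other 3 by a gap of most of the range: Socs1 at 1375568_at with 5.17 at 0 h, Socs1 at 1371252_at with 3.96 at 3 h and Socs2 with 3.12 at 12 h. Chance gives about 1 in 20 such gaps where values are not tied. The other 3 vehicle arrays read 4.12 each for Socs1 at 1371252_at and 3.17 each for Socs2. With such ties any deviation makes a gap, so the count of 3 cannot be set against that rate. All 3 are probe sets under the signal limit.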

How the results depend on the processing

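The rise of Jak2 at 12 h (0.93 to 0.97; adjusted p = 0.00016 to 0.0031) and the lack of a call for Cish and Stat3 held under all alternatives, and members past 2.5-fold stayed at 0. Of the alternative values of the member genes, 295 kept direction and side of the threshold, 18 lost a call, 6 gained one and 0 reversed; an uncalled value that changed sign was counted as kept. Of the 6 member genes, the calls numbered 1 for 3 h, 1 for 6 h, 3 for 12 h and 2 between 12 h and 3 h of NaF. With no filter these counts were 0, 0, 1 and 1; here the adjustment runs over more probe sets. With array medians set equal the count at 3 h was 0; with quantile normalization it was 0 at 3 h and 1 at 12 h; with a variance trend it was 2 at 6 h and 4 between 12 h and 3 h; with a mean signal of 7 or more it was 1 between 12 h and 3 h, Stat5a being left out. The cause of the other shifts was not tested. With each vehicle array left out the ranges were 0 to 1, 0 to 1, 2 to 3 and 2 to 3. The call of Stat5a at 12 h was lost with quantile normalization (-0.38; adjusted p = 0.09), and that of Il6st at 12 h with array medians set equal and with quantile normalization (adjusted p = 0.081 and 0.071). Between 12 h and 3 h, Jak1 gained a call with quantile normalization (-0.28; adjusted p = 0.024), where that of Stat5a was lost, with a variance trend (-0.21; 0.04) and without the vehicle array of 3 h (-0.21; 0.048). Mcl1 at 6 h of NaF reversed as the mean of its probe sets (0.20, adjusted p = 0.045), against -0.13 at its brightest probe set. Its other tested probe set, 1370141_at, rose by 0.53 at 6 h (limma adjusted p = 0.0025), so the probe sets disagreed. Leaving out 1 vehicle array ended several calls of ligands and targets at 3 h: with vehicle at 6 h left out, Il6, Clcf1, Tslp, Icam1, Pim3, Ptpn1 and Mcl1 were not called.

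Over all tested probe sets, 1032 were called at 3 h, against 223 with no filter, 205 without the vehicle array of 6 h and 347 without that of 12 h. With array medians set equal, 579 were higher and 768 lower at 3 h, beside 338 and 694. The comparison of 3 with 4 arrays called 1017, 619 with no filter, 58 to 120 with 1 vehicle array left out, 3328, 151 and 2054 without the NaF array of 3, 6 and 12 h, and 0 with time as a block. The pairs here are arrays of the same time, since the labels share no replicate numbers. Time as a block over the 3 pairs called 0 members, as did the comparison without the block.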
